A study of Mus musculus with 55 samples.

Results

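T, also called Brachyury, binds DNA in epiblast stem cells (EpiSCs) that have been treated to resemble the primitive streak, and 301 of its 767 sites there (39.2%) lay in chromatin that was open in cells labelled CdxKO. These 301 sites are described here. A T site is a stretch of the genome that 2 T ChIP-seq libraries both listed, sharing 1 base or more, with the overlapping regions merged. The sites were chosen by their overlap, again of 1 base or more, with the ATAC-seq regions of CdxKO EpiSCs at 48h. The 39.2% is therefore a description (95% Wilson interval 35.8 to 42.7). All intervals given here are of this kind and cover counting error only.

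T is a T-box transcription factor made in the primitive streak, the nascent mesoderm, the notochord and the tailbud, and embryos without it fail to form the posterior body. Cdx1, Cdx2 and Cdx4 are homeobox factors of the same posterior tissues, and like T they act with Wnt and Fgf signalling to keep the axial progenitors that lengthen the trunk and tail. ATAC-seq uses a transposase to mark accessible chromatin. H3K27ac is an acetylation of histone H3 at active enhancers and promoters, and CBP and p300 are acetyltransferases that place it.

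The series holds 55 mouse samples. EpiSCs are pluripotent cells that were derived here from embryos before the streak forms. Their medium held Activin A, Fgf-basic and 2 µM IWP2, which blocks Wnt secretion. WT cells were then taken off IWP2 and given 3 µM Chiron (CHIR99021, a GSK3 inhibitor that activates Wnt signalling) with 120 ng/mL Fgf8 for 24h. From these came 2 libraries each for T, Cdx2 and H3K27ac and 1 for CBP-P300. CdxKO cells gave 1 ATAC-seq library at 0h, under IWP2, and 1 at 48h, after IWP2 was withdrawn and 3 µM Chiron was added without Fgf8. Untreated WT embryos at E9.5 gave H3K27ac libraries of the tailbud and of anterior tissue, 2 each. The T and the 48h ATAC-seq lists therefore differ in genotype, time and Fgf8, and these cannot be told apart. The labels do not spell out the CdxKO alleles, do not say whether replicates were separate cultures or embryos, and in the culture text of the 0h CdxKO cells mention genotyping of Wnt3 null cells.

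Each list gives positions in the mouse build mm9 with no score, so a site either is or is not in a list, and the read depth behind it is unknown. List sizes set how often a site can be hit. The EpiSC H3K27ac lists held 27065 and 33764 regions, CBP-P300 13549, and Cdx2 1210 and 2545. ATAC-seq held 44850 regions at 0h and 46532 at 48h. At E9.5, replicate 1 held 39284 regions in tailbud and 28599 in anterior tissue, and replicate 2 held 76071 and 61674. Per the labels, the antibody batch of E9.5 replicate 1 also bound H3K9ac and its data were left out of the study's manuscript, so replicate 2 is used first here and replicate 1 stands beside it.

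RNA of EpiSCs labelled WT and Null was read by CEL-seq, which counts 3′ ends, in 2 libraries per group of 1114055 to 2914870 counts. Both were sampled at 0h under 2 µM IWP2 and after 24h with 3 µM Chiron and 120 ng/mL Fgf8, and the labels do not say that the Null line is the CdxKO line of the ATAC-seq. T was present in WT cells at 0h with 96 and 95 counts (53.6 and 56.1 CPM, which corrects for library size) and at 24h with 1504 and 648 counts (516 and 408 CPM). In cells labelled Null it was at 24 and 12 counts (15.2 and 10.8 CPM) and then at 1016 and 923 counts (477 and 589 CPM). In both WT and Null cells T at 24h was thus far above its 0h level, with no overlap between the times. The rise was larger in Null cells, which began lower. Cdx2 counts at 24h were 87 and 21 in WT (29.8 and 13.2 CPM) and 21 and 19 in Null cells (9.87 and 12.1 CPM). Cdx1 at 24h had 16 and 7 counts in WT and 9 and 7 in Null cells, and Cdx4 had 0 in each library. Reads of a 3′ end are also counted from a transcript that lacks another part, so they do not check the genotype, and the ATAC-seq libraries carry no RNA of their own.

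Most of the 301 sites were not listed as open before Chiron was added. At 0h, 108 of them (35.9%, 30.7 to 41.4) overlapped an ATAC-seq region and 193 (64.1%, called newly open below) did not, where 15.1% of all T sites were open at 0h. Of all 767 T sites, 193 (25.2%) were open at 48h but not at 0h, 108 (14.1%) at both times, 8 (1.04%) at 0h alone and 458 (59.7%) at neither. Loss of an open region at a T site was thus rare in the lists: 8 of the 116 T sites open at 0h were missing at 48h, while over the genome 9788 of 44850 regions at 0h (21.8%) had no overlap at 48h. The 193 sites were usually far from chromatin open at 0h, at a median of 17220 bases from the nearest 0h region, and 17 of them had one within 1 kb.

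Open chromatin elsewhere had a different history. Of the 300 ATAC-seq regions at 48h that hold a T site, 116 (38.7%, 33.3 to 44.3) overlapped a 0h region. Among the other 46232 regions 34553 did (74.7%, 74.3 to 75.1). Seen from the other side, a T site was present in 184 of the 11863 regions open at 48h only (1.55%) and in 116 of the 34669 regions open at both times (0.335%). Cdx2 sites, built from the 2 Cdx2 libraries by the same rule, were open at 48h in a similar proportion, 380 of 1075 (35.3%). Of those 380, however, 263 were already open at 0h (69.2%, 64.4 to 73.6). The intervals of the T and Cdx2 shares do not overlap. With 1 library per time there is no replicate spread to test any of these differences against.

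**Figure D1:**
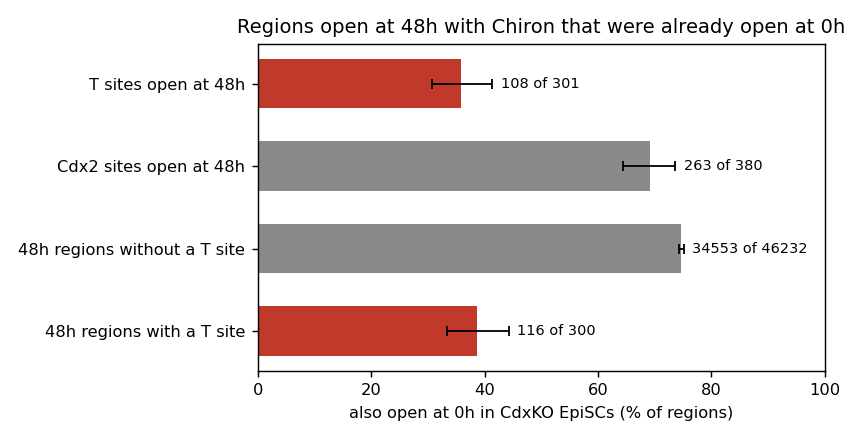
Horizontal bars give the percentage of each set open at 48h that also overlapped a 0h ATAC-seq region in CdxKO EpiSCs, with 95% Wilson intervals and counts. T sites (35.9%) and the 48h regions that hold them (38.7%) lie well below Cdx2 sites (69.2%) and the remaining 48h regions (74.7%).

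The open regions at T sites mostly lay over the middle of the T site. The median width was 305 bases for the T sites and 437 for their ATAC-seq regions, and the midpoint of 281 of the 301 T sites fell inside an open region. The middle of the T site and the middle of the open region lay a median of 79.5 bases apart. The 48h regions at newly open T sites were narrower, at a median of 360 bases, than those at sites open at both times, at 653. Regions without a T site had medians of 263 bases if not open at 0h and 661 if open then. The 360 and the 263 are not alike. For T sites, 0h overlap was judged at the site, and judged over the whole 48h region 117 of the 301 overlapped a 0h region. Wide regions are also more easily met by a T site, and the part of this was not tested. At the 108 sites open at both times, the median region had 458 bases at 0h, and 78 of the 108 were wider at 48h. Almost every site had an open region to itself, since 299 regions held 1 site and 1 region held 2.

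Wider T sites were more often open. In 4 width classes of near equal size, from the narrowest T sites (160 to 241 bases) to the widest (361 to 983), the share open at 48h was 29.9%, 36.6%, 40.5% and 50.3%. The order was the same when the midpoint of the T site had to lie in the open region, with 28.9%, 34%, 37.4% and 46.6%. Regions found in 1 T library alone were open less often than the shared sites, with 87 of 479 (18.2%) for replicate 1 and 68 of 312 (21.8%) for replicate 2.

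Few of the sites had another open T site close by. At a gap of up to 50 kb, 280 sites had no other open T site as a neighbour, 9 pairs formed, and 1 group of 3 lay at chr2:98502412-98507464. These counts were not compared with all T sites or with scattered sites. With so few sites in the genome, most would lie alone at this gap in any case. Chromosome Y had 1 T site, which was not open. On the other chromosomes, with 17 to 63 T sites each, the open share went from 5 of 29 on chromosome 12 (17.2%) to 25 of 46 on chromosome 4 (54.3%). Chromosome 3 gave 27 of 58 (46.6%) and chromosome 7 gave 13 of 45 (28.9%).

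H3K27ac was present in treated WT EpiSCs at a minority of the open T sites. It was listed at 86 of 301 in replicate 1 (28.6%, where 18.5% of all T sites were listed) and at 87 in replicate 2 (28.9%, against 18.6%). Of these, 69 sites were in both libraries (22.9%, 18.5 to 28, against 12.6% of all T sites). T sites that were not open at 48h had the mark in 56 of 466 in each library (12%) and in 28 of them in both (6.01%, 4.19 to 8.55). CBP-P300, with 1 library, was listed at 21 open sites (6.98%, 4.61 to 10.4, against 3.78% of all T sites) and at 8 of the 466 others (1.72%, 0.872 to 3.35). For both marks the intervals of open and other T sites do not overlap. They count sites as independent and leave out the spread between libraries, so they are no test.

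Newly open sites and sites that were open at both times had close shares in these lists when 1 shared base was enough. H3K27ac was at 53 and 51 of the 193 sites open at 48h only (27.5% and 26.4% in replicates 1 and 2) and at 33 and 36 of the 108 open at both times (30.6% and 33.3%). CBP-P300 was at 13 (6.74%) and 8 (7.41%). A stricter overlap parted the groups in 1 H3K27ac library: with the T midpoint inside the region, replicate 2 gave 22 (11.4%) and 28 (25.9%), while replicate 1 gave 27 (14%) and 17 (15.7%). In other open chromatin the shares were far apart. Regions without a T site that opened at 48h only had H3K27ac in 9.33% and 14.3% of 11679 cases and CBP-P300 in 3.03%. Regions without a T site that were open at both times had them in 45.7% and 55.2%, and in 23.8%, of 34553 cases. At an overlap of 1 base the newly open T sites were therefore above other newly open chromatin for H3K27ac in both libraries, and the T sites open throughout were below other chromatin open throughout. By the midpoint the first difference was present in replicate 1 (14% against 6.7%) and not in replicate 2 (11.4% against 10.9%), and CBP-P300 was at 1.04% against 1.08%. The second was present in both (15.7% against 37.3%, and 25.9% against 45.3%). Widths go along with this, since the median newly open region without T had 263 bases against 307 for the T sites, and the median region open throughout had 661 bases against 296. Their part in the result was not tested.

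**Figure D2:**
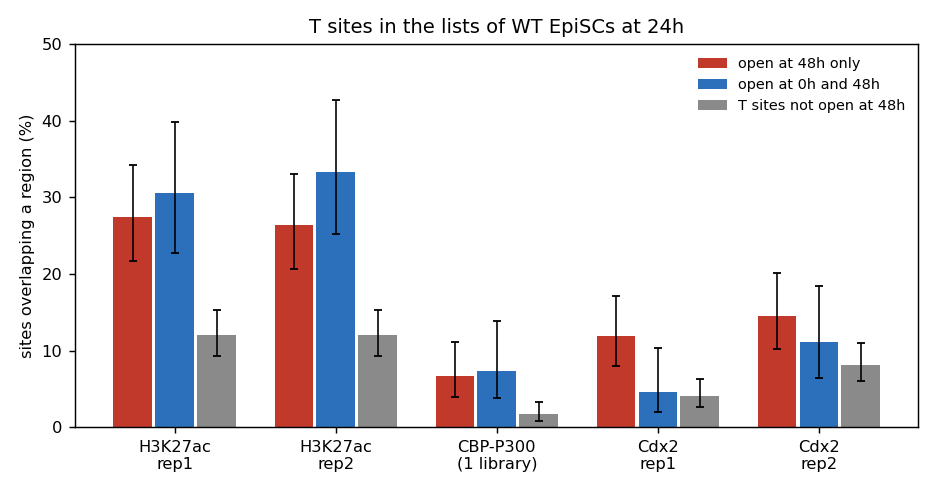
Bars give the percentage of T sites that overlap a region of each list from WT EpiSCs after 24h of Chiron and Fgf8, with 95% Wilson intervals, for 193 sites open at 48h only, 108 open at both times and 466 not open. Both open groups stand near 30% for H3K27ac, against 12% for the sites not open.

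The middle of a T site was less often inside an H3K27ac region than the stretches beside it. Along the distance from the T midpoint, H3K27ac of replicate 1 covered 22.6% of the 301 sites at 500 bases to the left, 14.6% at the midpoint and 24.9% at 500 bases to the right. In replicate 2 these were 25.9%, 16.6% and 28.2%. The newly open sites gave 23.3%, 14% and 24.4% in replicate 1 and 23.3%, 11.4% and 26.4% in replicate 2. At sites open at both times the dip was seen in replicate 1, with 21.3%, 15.7% and 25.9%, and was slight in replicate 2, with 30.6%, 25.9% and 31.5%. CBP-P300 had the same shape on a smaller scale, with 5.65% at 300 bases to the left, 1.66% at the midpoint and 4.98% at 300 bases to the right.

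Counted per site, 107 of the 301 sites had an H3K27ac region of replicate 1 within 1 kb of the midpoint. At 44 of these it covered the midpoint, at 23 it lay on both sides only, and at 40 on 1 side only. Replicate 2 gave 136 sites, with 50, 27 and 59. The midpoint was thus covered in 41.1% and 36.8% of sites with the mark nearby. In replicate 2 this share was 26.8% for the 82 such newly open sites and 51.9% for the 54 open at both times, and in replicate 1 it was 40.9% and 41.5%. T sites not open at 48h had lower shares still, 29.3% and 25.8%, so the dip was not confined to the open T sites. For 48h regions without a T site the shares were 75.7% and 75.5%. There the midpoint is that of the open region, and 74.7% of these regions were open at 0h, so the sets are not matched. CBP-P300 was within 1 kb of 47 of the 301 sites and covered the midpoint of 5 (10.6%). The same share was 0% of 29 at T sites not open and 42.1% at regions without T, again by the middle of the open region. The 1 kb window was chosen after the profile had been seen.

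**Figure D3:**
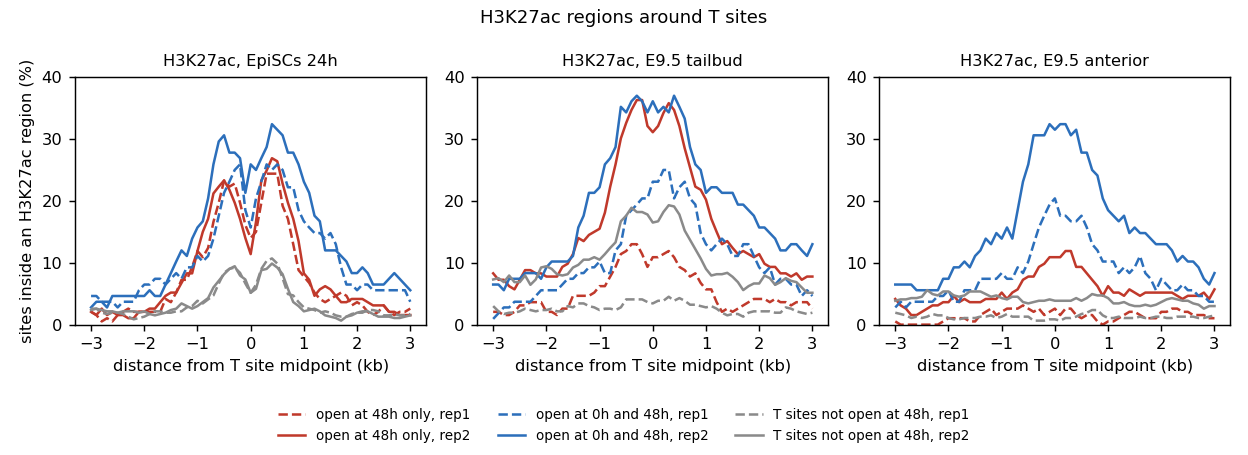
Each line gives the percentage of T sites that lie inside a listed H3K27ac region at a given distance from the T midpoint, in steps of 100 bases out to 3 kb, for treated EpiSCs, E9.5 tailbud and E9.5 anterior tissue (dashed, replicate 1, and solid, replicate 2). In EpiSCs the lines dip at or near the midpoint, while in anterior tissue the sites open at both times stand highest near the middle.

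Cdx2 shared few of these sites. A Cdx2 site was at 25 of the 301 (8.31%, 5.69 to 12), where 5.48% of all T sites had one, and at 17 of the 466 sites not open (3.65%, 2.29 to 5.76). The Cdx2 replicates listed 28 of the 301 (9.3%, 6.51 to 13.1, against 6.13% of all T sites) and 40 (13.3%, 9.91 to 17.6, against 10.2%), and the last is close to its background. Looked at from the Cdx2 side, 25 of the 42 T sites with a Cdx2 site were open in CdxKO cells (59.5%, 44.5 to 73), and 276 of the 725 without one (38.1%). Of the 25 shared open sites 20 were newly open at 48h (10.4% of 193) and 5 were open at both times (4.63% of 108), but these 2 intervals overlap (6.81 to 15.5 and 1.99 to 10.4). Among 48h regions without a T site, 0.766% held a Cdx2 site.

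Where a T site and a Cdx2 site overlapped, the overlap itself kept their midpoints close. The midpoints of T and Cdx2 were a median of 68.5 bases apart at the 25 sites, and within 100 bases at 18. At the 17 T sites not open that had a Cdx2 site, the median was 29 bases, and 14 were within 100. At the T midpoint 7.64% of the 301 sites were inside a Cdx2 site, against 0.997% at 300 bases to the left and 2.33% at 300 bases to the right. Over all 301 sites, the 25 shared ones included, a Cdx2 midpoint lay within 10 kb of 33 (11%) and within 50 kb of 45 (15%). At T sites not open these were 27 (5.79%) and 52 (11.2%) of 466.

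Each of these marks and factors was at a minority of the 301 sites, and CBP-P300 mostly came with H3K27ac. None of the 301 had H3K27ac in both EpiSC libraries, CBP-P300 and a Cdx2 site together, and none of the 466 T sites not open did. H3K27ac came with CBP-P300 at 15 sites (4.98%), with a Cdx2 site at 7 (2.33%), and alone at 47. Thus 15 of the 21 sites with CBP-P300 had H3K27ac. At T sites not open, H3K27ac came with CBP-P300 at 3 of 466 (0.644%) and with a Cdx2 site at 0. CBP-P300 was alone at 5 sites and with Cdx2 at 1, and a Cdx2 site alone was at 17. The remaining 209 (69.4%) had none of these, against 416 of 466 (89.3%) at T sites not open. Across all 9 other ChIP-seq lists, both tissues and both replicates included, 116 of the 301 sites were in none (38.5%), and 291 of the 466 (62.4%). The most lists at any of the 301 sites was 8, at 1 site open at both times.

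**Figure D4:**
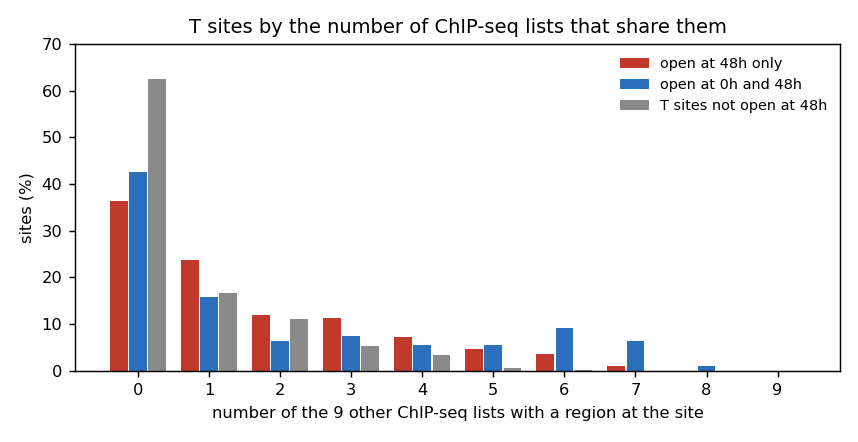
Bars give the percentage of T sites in each group by how many of the 9 other ChIP-seq lists (2 EpiSC H3K27ac, 1 CBP-P300, 2 Cdx2 and 4 E9.5 H3K27ac) have a region at the site. Sites in 0 lists make up 36.3% of those newly open, 42.6% of those open at both times and 62.4% of those not open.

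In the embryo, the open T sites carried H3K27ac more often in the tailbud than in anterior tissue. In replicate 2 the mark was at 125 sites in tailbud (41.5%, 36.1 to 47.2, where 30% of all T sites had it) and at 66 in anterior tissue (21.9%, 17.6 to 26.9, against 12%), which is 1.89 times as many. In replicate 1 it was at 58 (19.3%, against 11.2%) and 30 (9.97%, against 4.69%), or 1.93 times. Regions without a T site had no such lean in replicate 2, at 61.4% and 62.1% (0.988 times), and a small one in replicate 1, at 46.4% and 41.3% (1.12 times). The tailbud lean was not confined to open T sites. T sites not open at 48h had fewer marks in all, 105 in tailbud (22.5%) and 26 in anterior tissue (5.58%) in replicate 2, and a ratio of 4.04, with 28, 6 and 4.67 in replicate 1.

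Among the open sites the lean lay with the newly open ones. Of the 193, the tailbud of replicate 2 marked 83 (43%, 36.2 to 50.1) and anterior tissue 28 (14.5%, 10.2 to 20.2), a ratio of 2.96. In replicate 1 these were 30 (15.5%) and 6 (3.11%), a ratio of 5. Of the 108 sites open at both times, tailbud marked 42 (38.9%, 30.2 to 48.3) and anterior tissue 38 (35.2%, 26.8 to 44.6), a ratio of 1.11, and in replicate 1 they marked 28 and 24, a ratio of 1.17. Tailbud shares of the 2 groups were thus close in replicate 2, and it was the anterior share that set them apart there. Its intervals do not overlap, but they cover counting error only. In replicate 1 the tailbud share was lower at newly open sites (15.5%, 11.1 to 21.3) than at sites open at both times (25.9%, 18.6 to 34.9). The anterior shares there were 3.11% and 22.2%. Other chromatin that opened at 48h only had no tailbud lean in replicate 2, with 39.4% in tailbud and 41.6% in anterior tissue (0.948 times). In replicate 1 it had a smaller one than the newly open T sites (19.1% and 14.3%, 1.33 times). The ratio of the newly open T sites stayed between 2.86 and 2.96 in replicate 2, and between 4.2 and 5 in replicate 1, when the midpoint or 50% of the site had to be covered. Each tissue has 1 library per replicate list and the lists differ in size, so no test of these ratios was made.

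Sorted into classes by replicate 2, 65 of the 301 sites were marked in tailbud alone (21.6%), 60 in both tissues (19.9%), 6 in anterior tissue alone (1.99%) and 170 in neither (56.5%). By replicate 1 these counts were 38, 20, 10 and 233. Over all T sites the replicate 2 shares were 19.8%, 10.2%, 1.83% and 68.2%. The open sites were thus near that background for tailbud alone and for anterior tissue alone, and above it for both tissues. In replicate 2, of the 65 tailbud sites 57 were newly open, which is 29.5% of the 193, and 8 were open at both times (7.41% of 108). Sites marked in both tissues went the other way, with 26 newly open (13.5%) and 34 open throughout (31.5%). Replicate 1 had a much smaller gap for tailbud alone, with 27 newly open (14%) and 11 open throughout (10.2%), and for both tissues it gave 3 (1.55%) and 17 (15.7%).

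**Figure D5:**
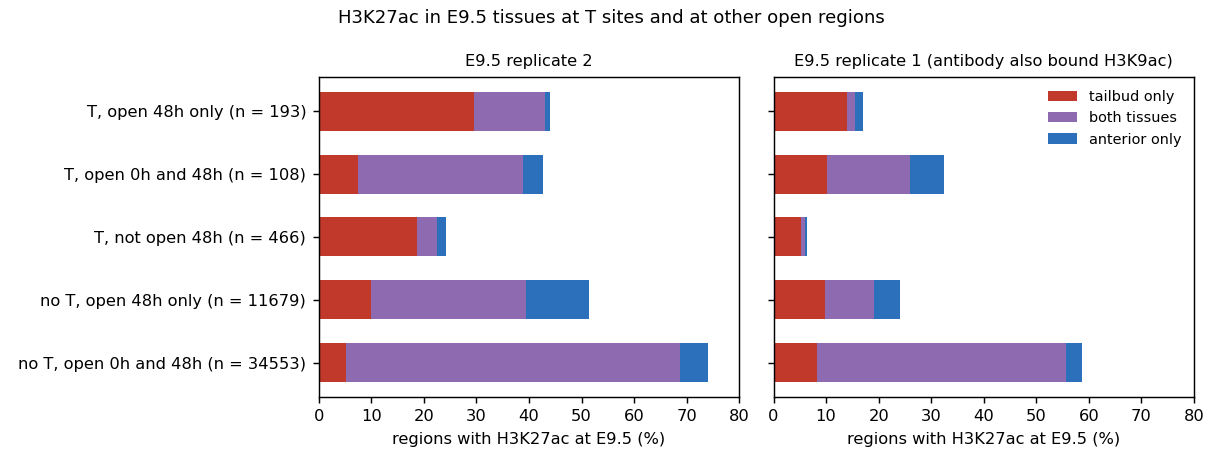
Stacked bars give the percentage of regions with H3K27ac at E9.5 in tailbud alone, in both tissues or in anterior tissue alone, for 3 groups of T sites and 2 groups of other 48h regions, by replicate 2 and by replicate 1. Newly open T sites have the largest tailbud part of the 5 groups in each panel (29.5% and 14%).

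Sites with H3K27ac in treated EpiSCs had it in the tailbud more often than the other open T sites. Of the 69 sites marked in both EpiSC libraries, 58 were marked in tailbud replicate 2 (84.1%) and 37 in anterior tissue (53.6%). Of the 232 others these were 67 (28.9%) and 29 (12.5%). The tailbud difference was not confined to open T sites. At T sites not open, tailbud replicate 2 marked 21 of 28 with the EpiSC mark (75%) and 84 of 438 without it (19.2%). Anterior replicate 2 marked 3 (10.7%) and 23 (5.25%) of these. The 39 newly open sites with the EpiSC mark gave 32 in tailbud (82.1%) and 13 in anterior tissue (33.3%), and the 30 open at both times gave 26 (86.7%) and 24 (80%). Replicate 1 was lower throughout: tailbud marked 38 of the 69 (55.1%) and 20 of the 232 (8.62%), with 16 of the 39 newly open sites (41%) and 22 of the 30 (73.3%). Its anterior list held 18 of the 69 (26.1%) and 12 of the 232 (5.17%). At E9.5 the dip over T was weaker and was not seen in each library. Tailbud replicate 2 covered 36.5% of the 301 sites at 300 bases to the left, 32.9% at the midpoint and 35.2% at 300 bases to the right. At 500 bases on either side it covered 33.2%. Tailbud replicate 1 had no dip between 500 bases to the left, the midpoint and 500 bases to the right, with 14%, 15.3% and 14%. Anterior replicate 2 had no dip, with 14.3%, 18.3% and 15.9% at these distances and 18.6% at 300 bases to the right. The 25 sites shared with Cdx2 were marked in tailbud replicate 2 at 13 (52%) and in anterior replicate 2 at 5 (20%). The 276 open sites without Cdx2 were not far from this, at 112 (40.6%) and 61 (22.1%). In replicate 1 the 25 gave 7 (28%) and 2 (8%), and the 276 gave 51 (18.5%) and 28 (10.1%). A tailbud holds several cell types, and a mark in few cells cannot be told apart from a weak mark in many.

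Single sites show these classes. Newly open sites with CBP-P300 and H3K27ac in both EpiSC libraries numbered 9. The 6 with the longest stretch covered by both T libraries begin with chr1:83986170-83986738, whose open region spans 834 bases and which had no E9.5 mark. At chr4:107406648-107407143 the T site lay near the edge of an open region of 2244 bases and was marked in both tailbud libraries and in anterior replicate 2. The site chr9:57660222-57660616 was marked in all 4 E9.5 libraries, and chr6:52065820-52066214, in an open region of 904 bases, in both tailbud libraries and anterior replicate 2. At chr6:87053261-87053717 and chr17:15567516-15567957 tailbud replicate 2 was the only E9.5 library with the mark. Thus 5 of these 6 were marked in tailbud replicate 2. That is near the share of all newly open sites with EpiSC H3K27ac, 32 of 39 (82.1%).

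Newly open sites with Cdx2 numbered 20. The first by the stretch both T libraries cover, chr16:21143586-21144102, was in no H3K27ac list, and the Cdx2 midpoint lay 224 bases from that of T. At chr16:11470084-11470570 the midpoints were 0.5 bases apart, and H3K27ac was listed in both tailbud libraries and in no EpiSC or anterior library. The sites chr9:66768452-66768875 and chr15:36636327-36636731 had EpiSC H3K27ac in both libraries and the mark in tailbud replicate 2, with Cdx2 midpoints at 140 and 95 bases, and the first of them also in anterior replicate 2. Tailbud replicate 2 marked chr19:9529780-9530289 as well, and chr13:5439641-5440058 had no H3K27ac in any library, with Cdx2 at 22 bases.

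The 6 sites marked in anterior tissue and not in tailbud in replicate 2 ran against the common direction. Of the 5 named, chr4:9006919-9007292 and chr11:113023785-113024069 were newly open, and chr3:5326798-5327088, chr4:134762077-134762332 and chr19:5002156-5002385 were open at both times. At chr3:5326798-5327088 both EpiSC libraries had H3K27ac and the open region was 1472 bases wide. No anterior or tailbud list of replicate 1 held any of the 5. Of the 116 sites in none of the 9 lists, chr17:82893773-82894221, newly open, had the longest stretch covered by both T libraries, 436 bases. The next was chr9:38009863-38010285, also newly open, followed by chr6:58389375-58389774, open at both times.

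The edge of the selection was a matter of a few bases at some sites. Just inside it, chr2:20301996-20302277 had 14 bases in an open region, and the next 4 sites had 75 to 104. Just outside, chr5:122051166-122051520 missed an open region by 24 bases and chr7:31571301-31571754 by 48, and the next 3 by 63 to 103. In all, 28 of the 466 sites not open had a 48h region within 1 kb, and their median distance to one was 16342 bases.

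A few sites also appeared in lists of sequenced input, which was not enriched with an antibody. There were 6 such sites, each in all 4 EpiSC input lists, and all 6 were open at both times. They are the 3 at chr2:98502412-98507464, then chr6:103599070-103599280, chr9:35112832-35113101 and chr9:3000332-3000509, the last in an open region of 38216 bases. None had E9.5 H3K27ac in replicate 2. The 193 newly open sites contained none of them. Without these 6 the share open at 0h was 34.6% of 295, and the tailbud and anterior shares of replicate 2 were 42.4% and 22.4%. In replicate 1 the tailbud count stayed at 58, while the anterior count went from 30 to 27. The ratio of tailbud to anterior there went from 1.93 to 2.15.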

How the data were processed

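ChIP-seq and ATAC-seq came as lists of regions in mm9, 1 per library, with no score. Per the submitters' processing notes, Bowtie 1.1.0 (ChIP-seq) or cutadapt 1.8.1 and Bowtie2 2.1.0 (ATAC-seq), SAMtools 0.1.19 and MACS2 2.1.0 were used. Thresholds and the use of input are not given in the sources used here. CEL-seq came as counts per gene, which the authors deposited without normalisation. CPM are each count divided by its library total and scaled.

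Regions were intersected in Python 3.11.15 at an overlap of at least 1 base, checked against bedtools 2.31.1 and on simulated regions. Shares carry 95% Wilson intervals from statsmodels 0.14.6. Sites are not replicates of a condition and neighbours can share a region, so no p-value was made. Named sites are up to 6 per class, ordered by the stretch both T libraries cover, none on chromosome 18. Members, classes and lists were chosen with earlier results of these data known, and the 50 kb gap, the profile and the splits by EpiSC H3K27ac after seeing the data. No mm9 sequence or annotation was used, so genes and motifs at the sites are not analysed here.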

Additional observations from a re-analysis of the deposited data

How the results depend on the processing

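No paired analysis was possible because the results are counts of regions and come from no test. Of 66 recomputed values, 40 stayed within the interval of the value reported and 26 did not. The cause was not tested, beyond what a stricter or wider overlap does by construction. With the T midpoint inside the region, the share of members open at 0h was 28.2%, with EpiSC H3K27ac 10.6%, with CBP-P300 1.66% and with tailbud replicate 2 32.9%. With 50% of the site covered these were 28.2%, 12%, 1.66% and 33.2%, and 35.3% of T sites were open at 48h. With a region within 1 kb of the midpoint, a setting added after seeing the data, EpiSC H3K27ac was at 31.6%, CBP-P300 at 15.6% and anterior replicate 2 at 28.6%. Leaving out a T replicate gave 31.1% to 34.2% of T sites open at 48h, and among members 37.9% to 41.5% open at 0h and 24.7% to 28.9% with anterior H3K27ac. H3K27ac replicate 1 alone gave 28.6% and replicate 2 alone 28.9%. Cdx2 replicate 2 alone gave 13.3% and either replicate 14.3%. By E9.5 replicate 1 alone, 12.6% were marked in tailbud only, 6.64% in both tissues and 77.4% in neither, and by regions of both replicates 12.6%, 6.64% and 78.4%. Planned motif counts and the RNA of nearest genes, with their edgeR and DESeq2 settings, were not run, since they need an mm9 genome or annotation.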
